A study of Mus musculus with 22 samples.

Results

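The 35 genes described here carry pyruvate into mitochondria, turn it into acetyl-CoA and run the tricarboxylic acid (TCA) cycle. They were chosen by function, with earlier results of these data known. Each of the 35 symbols matched exactly 1 of 55335 genes in the deposited gene table. RNA-seq of B6D2F1 mouse embryos gave 22 libraries of polyadenylated RNA, each from 15 pooled embryos. Control embryos and H2A.Z knockdown (KD) embryos, which had received about 10 pl of an siRNA mixture at 20 µM as zygotes, were taken at the 2-cell stage (44 h after hCG injection), as morulae (78 h) or as blastocysts (94 h). The labels do not state whether the control embryos of these libraries were injected. Each stage had 4 control libraries, and the KD had 3 libraries of 2-cell embryos, 3 of morulae and 4 of blastocysts. A library is a pool of whole embryos, so values cannot be assigned to the inner cell mass or the trophectoderm. For the same reason fewer cells of a type and less RNA per cell cannot be told apart.

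Values are FPKM, fragment counts divided by the length of the gene and by the size of the library, so levels can be compared between genes. Within a group they are given in the order of replicate numbers. These are 1, 2, 4 and 5 for control and 1, 2 and 4 for KD 2-cell embryos, 1, 2, 7 and 8 for control and 1, 2 and 6 for KD morulae, and 1, 4, 5 and 6 for both groups of blastocysts. A log2 fold change is a difference of mean log2(FPKM + 1) after scaling, and the added 1 makes it understate the change of genes with low FPKM. Its standard error is given as SE. A fold without log2 is a ratio of mean FPKM. Statements that libraries or groups overlap, are separate or lie above or below each other use FPKM as deposited, before scaling, unless stated otherwise. A gene was tested when 3 or more libraries of the comparison had an FPKM of 1 or more, and it is said to have risen or fallen at an adjusted p under 0.05 over all genes tested with limma. A gene that passed this filter in only 1 of the groups compared could only enter the test by being high there, so its direction was favoured by the filter, and such genes are named or counted where they were called. Calls were also looked at in other fits, which used no filter, the FPKM as deposited, 1 fit over all 22 libraries, the replicate number as a block or, chosen after seeing the data, a term for low or high replicate numbers. The block uses only numbers found in both groups, which between KD and control morulae, and between control morulae and control 2-cell embryos, are the 2 pairs numbered 1 and 2. A differentially expressed gene (DEG) also had an absolute log2 fold change above 1. The labels do not say whether replicates are separate embryo collections, so p measures the spread between these libraries only. The number of reads behind the values is unknown. Each library had 10143 to 12090 genes at 1 FPKM or more.

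Pyruvate enters the mitochondrion through a carrier made of Mpc1 and Mpc2, and the pyruvate dehydrogenase (PDH) complex then makes acetyl-CoA from it. PDH kinases (Pdk1 to Pdk4) switch the complex off by phosphorylation and PDH phosphatases (Pdp1 and Pdp2) switch it on again. The TCA cycle oxidizes the acetyl group and passes electrons to the respiratory chain, and early mouse embryos are known for their use of pyruvate as a carbon source before they take up more glucose around the blastocyst stage.

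The target gene H2afz, which encodes H2A.Z, had FPKM of 1244, 1236, 905 and 1178 in control and 415, 139 and 112 in KD 2-cell embryos. In morulae it had 1158, 1336, 1511 and 1421 in control and 30.3, 25.7 and 29.0 in KD libraries, and in blastocysts 2656, 2431, 1945 and 2055 and 64.2, 67.2, 53.2 and 57.6. Every KD library lay under every control library of its stage, and KD replicate 1 of the 2-cell stage kept the most H2afz of the KD libraries. The log2 fold change was -5.41 in morulae and -5.19 in blastocysts (adjusted p = 9.72e-08 and 3.63e-08, limma). At the 2-cell stage it was -2.53 with an adjusted p of 0.544, so the test over all genes did not pass there. H2afv, another H2A.Z gene, had FPKM of 111, 118, 96.8 and 113 in control and 97.6, 85.4 and 83.7 in KD 2-cell embryos, which overlapped. It had 97.3, 113, 100.0 and 92.5 in control and 12.9, 11.01 and 9.90 in KD morulae, then 49.9, 62.0, 54.5 and 63.5 and 19.9, 16.9, 10.6 and 13.9 in blastocysts. H2afv fell at both later stages, by 2.94 and 1.86 on the log2 scale (adjusted p = 2.92e-06 and 7.98e-05, limma).

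The labelled stages were checked against marker genes. The summed FPKM of 4 genes of the 2-cell embryo, with Zfp352 the most abundant, was 145 to 198 in control 2-cell embryos and 0.175 to 3.39 in control morulae. The summed FPKM of 6 trophectoderm genes, with Krt18 the most abundant, was 109 to 146 in control morulae and 989 to 1474 in control blastocysts. KD libraries also carried these stage markers, with sums of 186, 152 and 179 for the 2-cell genes in 2-cell embryos and 584, 741, 784 and 604 for the trophectoderm genes in blastocysts. The trophectoderm sums of all KD blastocysts lay below those of all control blastocysts. RNA stored by the oocyte was still abundant at the 2-cell stage, where 5 oocyte genes summed to 741 to 999 FPKM in control and 789 to 1039.8 in KD libraries, Oosp1 being the most abundant, against 4.79 to 10.3 in control morulae. Of 5 genes of cumulus or granulosa cells only Amhr2 reached 1 FPKM, at 3.82 to 17.1 in control libraries, and Fshr was at 0 in all 22 libraries.

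Some libraries stood apart within their group before any KD effect was considered. Among control 2-cell libraries, replicates 1 and 2 lay apart from replicates 4 and 5 for many of the 35 genes, most widely for Mpc1, Ogdh and Pdp2. Mpc1 had 459.7, 389, 105 and 134 FPKM, Ogdh 39.9, 50.5, 10.3 and 7.41 and Pdp2 13.7, 18.5, 45.9 and 46.3. Mpc1 and Ogdh were high and Pdp2 low in replicates 1 and 2, and genes such as Sdhd, Dld, Idh3b and Cs were also lower in these. Replicate libraries of a group correlated across genes at r = 0.978 to 0.993 on the log2 scale (genes are not independent replicates), and 0 pairs were identical.

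In control 2-cell embryos 32 of the 35 genes had a mean of at least 1 FPKM and their median level was 10.5. The median was 23.0 in control morulae and 48.5 in control blastocysts, where 30 of 35 genes reached 1 FPKM at each stage and 13 reached 100 in blastocysts. Across all genes at 1 FPKM or more the median was 5.93, 7.13 and 7.17. Per length, the highest means at the 2-cell stage were 272 ± 179 (SD, n = 4) for Mpc1, 117 ± 26.7 (SD, n = 4) for Mpc2, 113 ± 24.4 (SD, n = 4) for Pdhb and 103 ± 6.24 (SD, n = 4) for Mdh2. The ranges of these 4 genes overlapped, and Mpc1 was above Pdhb in replicates 1 and 2 only. In control blastocysts the highest levels were those of Mdh2, the mitochondrial malate dehydrogenase, at 348 ± 105 (SD, n = 4) FPKM and of Pdhb, a catalytic PDH subunit, at 343 ± 49.3 (SD, n = 4). Sdhb (317 ± 39.1 (SD, n = 4)) and Suclg1 (299.7 ± 16.5 (SD, n = 4)) came next, and the ranges of these 4 genes overlapped. Pdk2, Pdk4, Pdk1, Pdp1 and Pcx had a mean under 1 FPKM in control blastocysts.

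Normal development from the 2-cell stage to the morula was followed by comparing the control libraries of both stages. Of the 35 genes 33 were tested, 21 rose and 7 fell, where 43% of all 13655 genes tested rose and 40.3% fell. The median log2 fold change of the 33 was 1.15, beside 0.10 over all genes tested. Pdk1, Pdp1 and Pcx passed the filter only through the 2-cell libraries, where they are high, and Aco1, Idh1 and Idh2 only through the morulae. Without such genes 18 of 27 rose and 4 fell, where 46.5% of 7916 genes rose and 30.2% fell. All 5 PDH subunits rose, from 0.86 on the log2 scale for Pdhx (SE 0.18) to 3.15 for Pdha1 (18.1 to 168 FPKM, SE 0.17). The kinases Pdk1 and Pdk3 were lower in morulae. Pdk1 fell by 2.56 on the log2 scale, from 5.12 to 0.0308 FPKM, and Pdk3 by 2.55, from 14.1 to 1.55 FPKM (adjusted p = 9.19e-09 and 4.99e-08, limma). The phosphatase Pdp1 also fell (-1.69), as did pyruvate carboxylase Pcx (-2.86), which makes oxaloacetate from pyruvate, and the malic enzymes Me1 (-1.56) and Me2 (-1.30).

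Between citrate and 2-oxoglutarate 6 of 7 genes rose in this comparison, 3 of them (Aco1, Idh1 and Idh2) genes that passed the filter only through the morulae. Of all genes tested 43% rose and 40.3% fell, the shares beside which this and the other counts by role stand. The largest rises of the 35 genes were those of Idh1, the cytosolic NADP-dependent isocitrate dehydrogenase, from 1.27 to 86.6 FPKM (5.32 on the log2 scale, SE 0.22), and of Suclg1, the subunit shared by both succinyl-CoA ligases, from 2.24 to 95.6 (4.90, SE 0.19). Idh2, the mitochondrial NADP-dependent enzyme, rose by 4.62. Citrate synthase, Cs, had 44.8 FPKM in 2-cell embryos and 38.1 in morulae and was not called (adjusted p = 0.314, limma), though it passed as lower in the fit over all 22 libraries (0.0439). Of the 5 genes from 2-oxoglutarate to succinate 3 rose, Suclg1, Sucla2 (2.83) and Suclg2 (1.47), and Ogdh, the decarboxylating subunit of 2-oxoglutarate dehydrogenase, fell by 2.37. Its call remained without 2-cell control replicate 1 or without replicate 2. Both were high for Ogdh and each such fit kept the other, so the part of this pair in the call was not tested. Of the 7 genes from succinate to oxaloacetate 6 rose, from 1.25 for Mdh2 to 3.68 for Sdhb, the iron-sulfur subunit of succinate dehydrogenase. Mdh1, the cytosolic malate dehydrogenase, was level between the stages at 11.5 and 12.8 FPKM (adjusted p = 0.543, limma). The carrier gene Mpc2 rose by 0.90, a call lost with the replicate block (adjusted p = 0.0547), and Mpc1 (-0.25), Pdp2 (0.43) and Dlst (0.19) were not called. With the block, from 2 pairs, Mpc1 passed as lower (-1.25, adjusted p = 0.00652) and Pdp2 as higher (1.13, adjusted p = 0.00145).

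From the control morula to the control blastocyst 30 of the 35 genes were tested. Of these 18 rose and 3 fell, where 27.6% of all 11849 genes tested rose and 28.8% fell, and the median log2 fold change was 0.63, beside -0.03 over all genes. The largest rises were those of Mdh1, Idh3a and Sdhd. Mdh1 rose 10.7-fold, from 12.8 ± 2.27 (SD, n = 4) to 136 ± 34.7 (SD, n = 4) FPKM (3.21 on the log2 scale, SE 0.24, adjusted p = 7.35e-07, limma). Idh3a, the catalytic subunit of the NAD-dependent isocitrate dehydrogenase, rose 5.81-fold, and Sdhd, a membrane anchor of succinate dehydrogenase, 4.48-fold. Fh1 (fumarase, 1.67), Dlst (the succinyl-transferring subunit of 2-oxoglutarate dehydrogenase, 1.65), Suclg1 (1.56), Sdhc (1.47), Sdhb (1.07) and Dld (1.16) also rose by more than 1 on the log2 scale, as did the malic enzymes Me2 (1.77) and Me1 (1.45). The genes that fell were Mpc2 (219 to 62.9 FPKM, -1.85), Pdp2 (37.3 to 9.87 FPKM, -1.93) and the PDH subunit Pdha1 (168 to 105 FPKM, -0.79). Smaller rises were those of Cs (0.81), Idh1 (0.77), Ogdh (0.73), Sucla2 (0.63), Aco1 (0.63), Sdha (0.41) and Idh3b (0.34).

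Some calls of this comparison changed with the fit or with a library left out. Ogdh was not called in the fit over all 22 libraries (adjusted p = 0.142), nor Sucla2 without the filter (0.0641). Idh3b was no longer called with any 1 of the 8 libraries left out (adjusted p up to 0.0863), although its log2 fold change stayed at 0.28 to 0.37. Sdha was not called without morula control replicate 2 (adjusted p = 0.0778) or 7 (0.0818), nor without blastocyst control replicate 4 (0.0639) or 5 (0.0737). Its log2 fold change was 0.35 to 0.49 with 1 library left out. Mpc1, Pdhb, Pdhx, Dlat, Pdk3, Idh2, Idh3g, Suclg2 and Mdh2 were tested and not called, with log2 fold changes of -0.34 to 0.36. Of these Pdhx passed as lower without morula control replicate 1 (-0.44, adjusted p = 0.0347) and Suclg2 as higher without blastocyst control replicate 1 (0.68, adjusted p = 0.00402).

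KD and control 2-cell embryos were compared next. Of the 33 genes tested 0 rose and 0 fell, and of all 12160 genes tested 0% rose and 0% fell with limma. At an unadjusted p under 0.05 there were 3 of the 33, Dlst, Suclg1 and Sdhd, and 701 of all genes. A fit over all 22 libraries called 46 genes at this stage and 0 of the 33, and fits without 1 library called at most 3 genes, 3 of them without KD replicate 1. Sdhd had 7.11, 7.41, 12.4 and 14.9 FPKM in control and 4.001, 7.22 and 4.17 in KD embryos. Suclg1 had 2.11, 1.64, 2.09 and 3.11 in control and 0.990, 0.349 and 1.52 in KD embryos. The Sdhd groups overlapped by KD replicate 2 alone, and the Suclg1 groups did not overlap. Dlst had group means of 1.98 in control and 0.726 in KD embryos and did not overlap either. Dlst and Suclg1 passed the filter only through the control libraries. The log2 fold change was -0.82 for Sdhd (SE 0.26, adjusted p = 0.828), -0.71 for Suclg1 and -0.82 for Dlst (adjusted p = 0.828 and 0.828). The median log2 fold change of the 33 genes was -0.11 with 25 of 33 below 0, beside a median of 0.00 over all genes. The median SE of the 33 was 0.21.

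KD morulae and KD blastocysts were then compared with the control libraries of their stage. In morulae 30 of the 35 genes were tested. Of these 5 fell and 0 rose with limma, where 9.05% of all 10989 genes tested fell and 4.22% rose. The 5 were Sdhd, Sdha, Fh1, Dlat and Sdhc, and Sdhd was the only DEG (background 2.59% for DEGs that fell). At an unadjusted p under 0.05 there were 14 of 30, beside 3350 of all 10989 genes, Mpc1, Mpc2, Me1 and Ogdh among them with higher values, and other fits called up to 3 of the 30 as higher. The median log2 fold change was -0.26 with 22 of 30 below 0, beside 0.02 over all genes. In FPKM as deposited the groups did not overlap for 16 of 30 genes, where this held for 29.6% of all genes tested. After scaling, the groups of some of these genes overlapped, among them Pdhx, Dld, Pdk3, Idh3a, Suclg1 and Mdh1. With the FPKM as deposited, without scaling between libraries, the median of all genes moved to -0.09, 10 of 30 genes fell, and 15.3% of all genes called at this stage were higher in place of 31.8% with scaling.

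In blastocysts 30 of the 35 genes were tested. Of these 10 fell and 2 rose, where 19.8% of all 11828 genes tested fell and 16.7% rose. The 10 were Sdhd, Mdh1, Idh3a, Fh1, Sdhc, Me2, Suclg1, Dld, Sdhb and Pdhx, and those that rose were Pdp2 and Mpc2. There were 4 DEGs that fell, Sdhd, Mdh1, Idh3a and Fh1 (background 7.76%), and 0 that rose with limma (background 6.1%). At an unadjusted p under 0.05 there were 15 of 30 in either direction, near the share of all genes (5440 of 11828). The median log2 fold change was -0.38 with 23 of 30 below 0, beside 0.00 over all genes. In FPKM as deposited, groups did not overlap for 14 of 30 genes, where this held for 34.5% of all genes tested. Pdk2 and Pdk4 were tested in no comparison, because their FPKM were too low. For the same reason Pdk1, Pdp1 and Pcx were not tested between KD and control in morulae or blastocysts, nor between control morulae and control blastocysts.

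**Figure D1:**
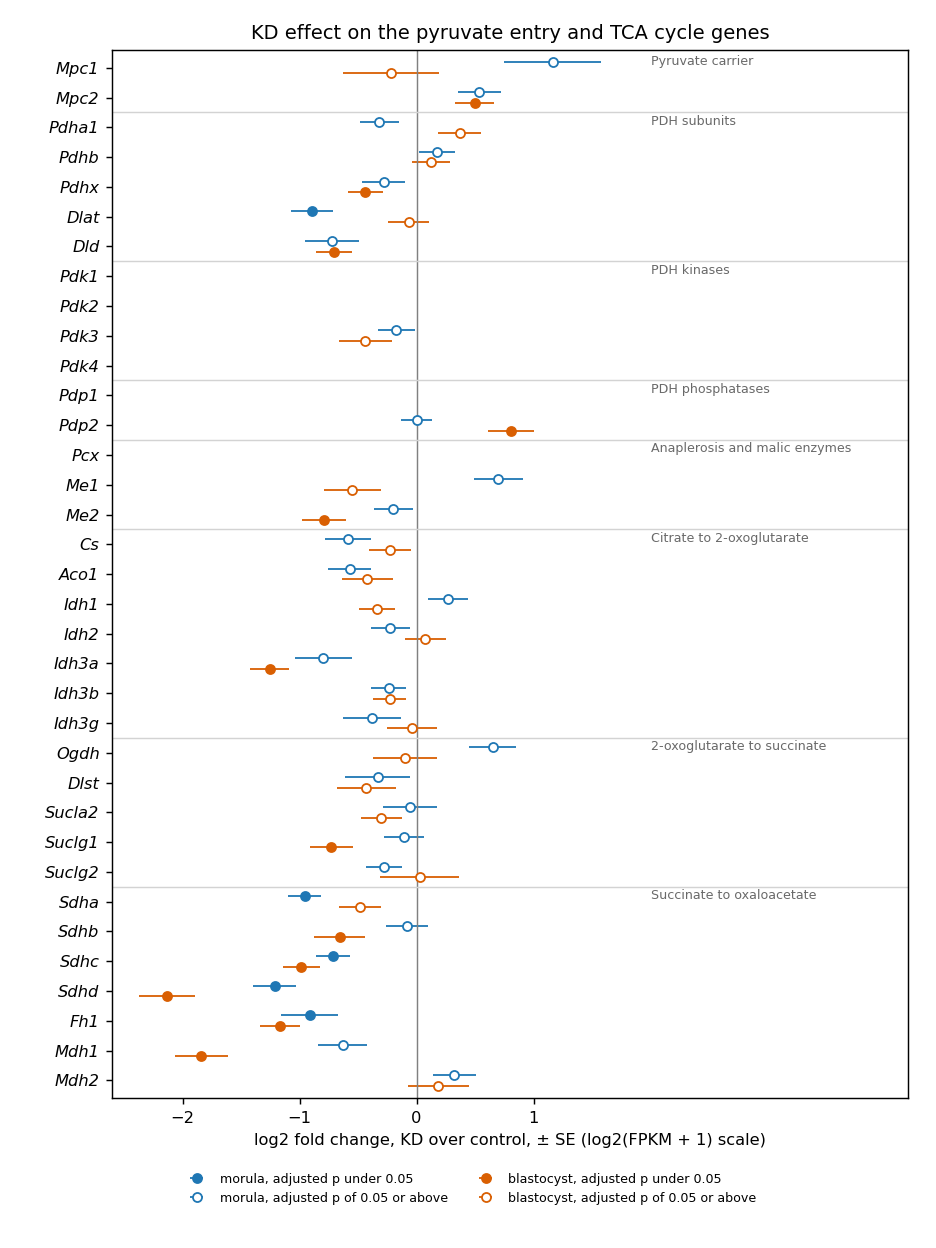
Log2 fold change, KD minus control, of the 30 tested genes in morulae and in blastocysts, with bars of 1 standard error; filled points passed at an adjusted p under 0.05. Sdhd lies lowest at both stages, at -1.21 in morulae and -2.13 in blastocysts.

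Both genes of the pyruvate carrier were abundant in every library. Mpc1 had 146, 403 and 142 FPKM in KD 2-cell embryos. It had 380.3, 106, 164 and 192 in control and 519, 198 and 574 in KD morulae. In blastocysts Mpc1 had 121, 314, 250.05 and 93.9 FPKM in control and 143, 113, 93.8 and 314 in KD embryos. Libraries of 1 group differed severalfold from each other, and KD and control overlapped at every stage. The log2 fold change of Mpc1 was 1.16 in morulae (SE 0.41, adjusted p = 0.0886) and -0.22 in blastocysts (SE 0.41, adjusted p = 0.717), and neither passed. Without morula control replicate 1, the highest control library, or without morula KD replicate 2, the lowest KD library, Mpc1 passed in morulae (1.44 with adjusted p = 0.0396, and 1.65 with 0.0362). With the replicate block, and so from 2 pairs, it had a smaller log2 fold change of 0.83 and passed in morulae (adjusted p = 0.00232).

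Mpc2, the partner of Mpc1, had 128, 148, 88.9 and 101 FPKM in control and 48.5, 128 and 65.3 in KD 2-cell embryos. It had 198, 283, 215 and 179 in control and 316, 314 and 238 in KD morulae, and 65.3, 61.3, 59.4 and 65.7 in control and 91.2, 77.8, 82.9 and 105 in KD blastocysts. All 4 KD blastocyst libraries lay above all 4 control libraries, while the groups overlapped at the earlier stages. Mpc2 rose in KD blastocysts, 1.42-fold (0.50 on the log2 scale, SE 0.16, adjusted p = 0.0322), and had 0.54 in morulae without passing (adjusted p = 0.0778). The interaction test of a difference between the stages did not pass (adjusted p = 0.865). The blastocyst call was lost without control replicate 4 (adjusted p = 0.0900), 5 (0.0874) or 6 (0.0702) and without KD replicate 1 (0.0753) or 6 (0.105), and Mpc2 passed in morulae without control replicate 2 (0.0375). The blastocyst call was also lost without the filter (adjusted p = 0.0610) and in the fit over all 22 libraries (0.118).

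Of the 5 PDH subunits 1 fell in morulae and 2 others fell in blastocysts, where 9.05% and 19.8% of all genes fell. Dlat encodes the acetyl-transferring core of the complex and had 2.29, 2.602, 2.43 and 3.29 FPKM in control and 2.34, 1.65 and 2.33 in KD 2-cell embryos. In morulae it had 7.68, 5.80, 5.07 and 5.50 in control and 2.53, 1.91 and 3.17 in KD libraries, and in blastocysts 6.65, 6.84, 8.69 and 6.56 and 5.94, 5.03, 9.36 and 7.30. The morula groups were separate, with every KD library near the level of 2-cell embryos, and the blastocyst groups overlapped. Dlat fell 2.37-fold in KD morulae (-0.89 on the log2 scale, SE 0.18, adjusted p = 0.0115), a call that was lost without KD replicate 2 (adjusted p = 0.0573). In blastocysts its log2 fold change was -0.07 (adjusted p = 0.802). The morula call was also lost without the filter (adjusted p = 0.0550).

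Dld encodes dihydrolipoamide dehydrogenase, which the PDH and the 2-oxoglutarate dehydrogenase complexes share. It had 6.62, 8.55, 14.1 and 13.5 FPKM in control and 7.72, 10.2 and 7.13 in KD 2-cell embryos. It had 23.9, 23.2, 29.9 and 34.1 in control and 13.7, 12.2 and 19.5 in KD morulae, and 65.7, 68.9, 64.8 and 66.2 in control and 33.8, 44.7, 40.3 and 42.6 in KD blastocysts. All KD morulae and all KD blastocysts were below the control libraries of their stage in FPKM as deposited. After scaling, morula KD replicate 6 lay above morula control replicate 1. Dld fell in blastocysts (-0.70 on the log2 scale, SE 0.15, adjusted p = 0.00388), and in morulae it had -0.72 (SE 0.23, adjusted p = 0.0615) without passing. It passed in morulae without control replicate 1 (adjusted p = 0.0363) or KD replicate 6 (0.0307), and the interaction test gave an adjusted p of 0.977. In morulae Dld was also called with FPKM as deposited (adjusted p = 0.0175), in the fit over all 22 libraries (0.0310), with the replicate block (0.0422) and with the term for replicate numbers (0.0117).

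Pdhx binds Dld to the core of the complex and had 16.1, 12.7, 19.1 and 18.1 FPKM in control and 17.0, 13.8 and 13.4 in KD 2-cell embryos. It had 27.9, 30.2, 28.2 and 37.0 in control and 23.2, 19.7 and 26.4 in KD morulae, then 20.9, 28.1, 28.2 and 25.6 in control and 15.6, 18.8, 19.5 and 20.5 in KD blastocysts. As deposited, KD libraries lay below control libraries in morulae and blastocysts, in blastocysts by a narrow margin between KD replicate 6 and control replicate 1. The morula groups overlapped after scaling. Pdhx fell in blastocysts (-0.44 on the log2 scale, SE 0.15, adjusted p = 0.0367) but not in morulae (-0.28, adjusted p = 0.337), with an adjusted p of 0.629 for the interaction. Its call was lost in 6 of 8 fits without 1 library, those without control replicate 4 (adjusted p = 0.0940), 5 (0.0712) or 6 (0.0750) and without KD replicate 1 (0.0855), 5 (0.0596) or 6 (0.0562). It was also lost with FPKM as deposited (0.0506) and with the replicate block (0.0504). The catalytic subunits Pdha1 and Pdhb were not called. Pdha1 had 107 to 145 FPKM in KD and 152 to 191 in control morulae, and 104 to 159 in KD and 83.6 to 144 in control blastocysts. Pdhb had 276 to 353 FPKM in KD and 287 to 343 in control morulae, and 329.8 to 399 in KD and 275 to 388 in control blastocysts.

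Of the PDH kinases, Pdk1 and Pdk3 were highest at the 2-cell stage. Pdk1 had 4.48, 6.01, 5.42 and 4.55 FPKM in control and 6.56, 4.12 and 5.03 in KD 2-cell embryos. It had 0.0246, 0.0178, 0.0314 and 0.0494 in control and 0.0373, 0.0264 and 0.0321 in KD morulae, and 0.237, 0.419, 0.113 and 0.0890 in control and 0.0322, 0.105, 0.0685 and 0.117 in KD blastocysts. Every 2-cell library was above every later one, and KD and control overlapped at each stage. Pdk3 had 12.0, 12.8, 19.0 and 12.5 FPKM in control and 16.8, 11.4 and 17.1 in KD 2-cell embryos. In morulae it had 1.23, 1.75, 1.55 and 1.65 in control and 1.17, 1.09 and 1.18 in KD libraries, and in blastocysts 1.78, 3.14, 2.06 and 2.15 and 2.596, 0.963, 1.49 and 0.840. All KD morulae lay below all control morulae by a small amount as deposited, and overlapped with them after scaling. The blastocyst groups overlapped through KD replicate 1. Pdk3 had a log2 fold change of -0.17 in morulae (adjusted p = 0.486) and -0.44 in blastocysts (adjusted p = 0.154), where it passed the filter only through the control libraries, and it was called in blastocysts without KD replicate 1 (-0.66, adjusted p = 0.0204).

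Pdk2 and Pdk4 were near 0 throughout. Pdk2 had 0.368, 0.0941, 0.0231 and 0.107 FPKM in control and 0, 0.0565 and 0.0667 in KD 2-cell embryos. It had 0.387, 0.506, 0.0660 and 0.1497 in control and 0.151, 0.298 and 0.129 in KD morulae, and 0.219, 0.403, 0.252 and 0.163 in control and 0.0946, 0.0848, 0.331 and 0.0474 in KD blastocysts. These values overlapped at each stage and none reached 1 FPKM. Pdk4 was listed at 0 in all 2-cell and morula libraries and had 0.0258, 0.0892, 0.0876 and 0.0661 FPKM in control and 0.0453, 0.139, 0.259 and 0 in KD blastocysts, which overlapped.

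Of the PDH phosphatases, Pdp2 had 15.9, 18.4 and 24.6 FPKM in KD 2-cell embryos. It had 43.9, 37.5, 33.9 and 33.7 in control and 34.0, 34.8 and 33.2 in KD morulae, and 6.31, 9.51, 13.6 and 10.1 in control and 19.0, 14.6, 21.8 and 15.0 in KD blastocysts. KD and control overlapped up to the morula, and all 4 KD blastocyst libraries were above all 4 control libraries. Pdp2 rose 1.78-fold in KD blastocysts, from 9.87 ± 2.97 (SD, n = 4) to 17.6 ± 3.44 (SD, n = 4) FPKM (0.81 on the log2 scale, SE 0.19, adjusted p = 0.00665), where it fell in normal development. In morulae its log2 fold change was 0.00 (adjusted p = 0.996). Pdp1, the other phosphatase gene, had 3.47 to 5.69 FPKM in control and 3.95 to 5.19 in KD 2-cell embryos, and at most 1.09 in any later library. In blastocysts Pdp1 had 0.353, 0.850, 0.716 and 0.438 FPKM in control and 0.349, 0.154, 0.326 and 0.157 in KD embryos. Every KD library was below every control library there, at levels too low to be tested.

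Me2 is the mitochondrial malic enzyme, which makes pyruvate from malate. It had 8.06, 9.56, 10.6 and 9.98 FPKM in control and 8.45, 8.47 and 10.97 in KD 2-cell embryos. It had 4.11, 3.07, 2.67 and 3.43 in control and 2.76, 2.04 and 2.77 in KD morulae, and 9.68, 16.9, 17.8 and 14.9 in control and 8.12, 9.02, 7.88 and 6.62 in KD blastocysts. The lowest control blastocyst library, replicate 1, lay just above the highest KD library, and the groups overlapped at the earlier stages. Me2 fell 1.87-fold in KD blastocysts (-0.79 on the log2 scale, SE 0.19, adjusted p = 0.00614), with -0.20 in morulae (adjusted p = 0.445) and an adjusted p of 0.112 for the interaction. The cytosolic malic enzyme Me1 was not called at either stage. Its log2 fold change was 0.70 in morulae (adjusted p = 0.0525) and -0.55 in blastocysts (adjusted p = 0.0993). Me1 passed in morulae without control replicate 1 (adjusted p = 0.00816), which had 12.9 FPKM beside 5.85 to 6.58 in the other control morulae. In blastocysts it passed without KD replicate 5 (adjusted p = 0.00820), which had 30.3 FPKM beside 11.1 to 15.9 in the other KD blastocysts. The fit over all 22 libraries called Me1 at both stages (adjusted p = 0.0476 and 0.0385), and the term for replicate numbers called it in morulae (0.0483). Pcx had 4.51 to 9.13 FPKM in control and 6.27 to 13.6 in KD 2-cell embryos, and at most 0.406 in later libraries.

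Of the 7 genes from citrate to 2-oxoglutarate 0 were called in morulae (limma, 3 at an unadjusted p under 0.05) and 1 fell in blastocysts, Idh3a, which is not above the 19.8% of all genes. Idh3a had 10.6, 10.6, 14.5 and 16.0 FPKM in control and 9.597, 10.1 and 10.1 in KD 2-cell embryos. It had 21.6, 21.3, 23.3 and 23.6 in control and 9.51, 8.55 and 18.2 in KD morulae, and 144, 136, 127 and 115 in control and 50.3, 58.5, 49.3 and 56.5 in KD blastocysts. As deposited, KD libraries were below control libraries at all 3 stages, and KD morula replicate 6 stood apart from the other KD morulae towards the control level. After scaling, the groups overlapped at the 2-cell stage and in morulae. Idh3a fell 2.43-fold in KD blastocysts, from 130.3 ± 12.3 (SD, n = 4) to 53.7 ± 4.53 (SD, n = 4) FPKM (-1.26 on the log2 scale, SE 0.17, adjusted p = 0.000193). In morulae it had -0.80 (SE 0.25, adjusted p = 0.0589) and passed without KD replicate 6 (-1.14, adjusted p = 0.00837). It was also called in morulae with FPKM as deposited (adjusted p = 0.0219), in the fit over all 22 libraries (0.0152), with the replicate block (0.000845) and with the term for replicate numbers (0.0231). The interaction did not pass (adjusted p = 0.305).

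The other subunits of the same enzyme, Idh3b and Idh3g, were not called. In blastocysts Idh3b had 109 to 132 FPKM in KD and 132 to 142 in control embryos, and Idh3g 193 to 269 and 183 to 302. The NADP-dependent enzymes had log2 fold changes of -0.34 for Idh1 and 0.07 for Idh2 in blastocysts (adjusted p = 0.0991 and 0.779). Cs, which starts the cycle, had -0.59 in morulae (adjusted p = 0.0755) and -0.23 in blastocysts (0.344), and the cytosolic aconitase Aco1 had -0.57 (adjusted p = 0.0669) and -0.42 (0.151). Without morula KD replicate 6 both passed in morulae (adjusted p = 0.0460 for Cs and 0.0282 for Aco1). Without blastocyst KD replicate 5, which had 7.17 FPKM beside 3.34 to 3.70 in the other KD blastocysts, Aco1 also passed in blastocysts (adjusted p = 0.0453). In morulae Cs and Aco1 were also called with FPKM as deposited (adjusted p = 0.0256 and 0.0297) and with the term for replicate numbers (0.0315 and 0.0414).

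From 2-oxoglutarate to succinate 0 of 5 genes were called in morulae (limma, 1 at an unadjusted p under 0.05) and 1 of 5 fell in blastocysts, Suclg1, which is close to the 19.8% of all genes. Suclg1 had 84.4, 86.6, 104 and 107 FPKM in control and 81.9, 77.2 and 83.8 in KD morulae, and 319.9, 305, 292 and 282 in control and 185, 206, 145 and 187 in KD blastocysts. As deposited, KD libraries were below control libraries at both stages, closely in morulae and widely in blastocysts. The morula groups overlapped after scaling. Suclg1 fell 1.66-fold in blastocysts (-0.73 on the log2 scale, SE 0.19, adjusted p = 0.00922) and had -0.11 in morulae (adjusted p = 0.704), with an adjusted p of 0.0993 for the interaction. Its partners Sucla2 and Suclg2, which set the nucleotide used, had -0.30 and 0.03 in blastocysts (adjusted p = 0.195 and 0.962). Ogdh had 1.88 to 4.44 FPKM in control and 4.24 to 5.76 in KD morulae (0.65, adjusted p = 0.0546), and passed as higher without control replicate 1 (adjusted p = 0.0405). It also passed with the term for replicate numbers (0.0321). In blastocysts its log2 fold change was -0.10. Dlst had -0.33 in morulae and -0.43 in blastocysts (adjusted p = 0.447 and 0.201), and passed in blastocysts without KD replicate 5 (adjusted p = 0.0156).

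Succinate dehydrogenase is the enzyme that the TCA cycle shares with the respiratory chain. Of its 4 genes 3 fell in morulae (Sdhd, Sdhc and Sdha) and 3 in blastocysts (Sdhd, Sdhc and Sdhb), where 9.05% and 19.8% of all genes fell. Sdhd encodes a membrane anchor. It had 32.3, 38.2, 40.7 and 45.3 FPKM in control and 15.8, 13.9 and 14.9 in KD morulae, and 209.6, 211, 132 and 148 in control and 41.4, 48.1, 32.7 and 32.5 in KD blastocysts. No KD library came near a control library, and the KD blastocysts held Sdhd at about the level of control morulae, a difference that was not tested. Sdhd fell 2.64-fold in morulae, from 39.2 ± 5.43 (SD, n = 4) to 14.9 ± 0.930 (SD, n = 3) FPKM (-1.21 on the log2 scale, SE 0.18, adjusted p = 0.00435). In blastocysts it fell 4.53-fold, from 175 ± 40.8 (SD, n = 4) to 38.7 ± 7.52 (SD, n = 4) FPKM (-2.13, SE 0.24, adjusted p = 5.90e-05), the largest change of the 30 genes tested there. The call held in all 7 morula and all 8 blastocyst fits without 1 library. The interaction was -0.96 with an adjusted p of 0.0624. It passed without morula control replicate 8 (adjusted p = 0.0487), blastocyst control replicate 5 (0.0272) or blastocyst KD replicate 4 (0.0337). It also passed with FPKM as deposited (0.0470), with the replicate block (0.0268) and with the term for replicate numbers (0.0287).

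Sdhc encodes the other membrane anchor and had 3.59, 2.91, 5.22 and 4.60 FPKM in control and 3.17, 3.72 and 3.53 in KD 2-cell embryos. It had 14.6, 13.7, 11.1 and 11.2 in control and 7.04, 6.56 and 6.35 in KD morulae, and 36.5, 36.5, 42.4 and 39.5 in control and 14.004, 21.0, 21.7 and 20.2 in KD blastocysts. The groups were separate at both later stages and overlapped at the 2-cell stage. Sdhc fell in morulae (-0.71 on the log2 scale, SE 0.14, adjusted p = 0.0120) and in blastocysts (-0.98, SE 0.16, adjusted p = 0.000674). The morula call was lost without KD replicate 2 (adjusted p = 0.0528).

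Sdha encodes the flavoprotein subunit that oxidizes succinate. It had 4.77, 5.65, 7.89 and 7.91 FPKM in control and 3.59, 4.79 and 5.49 in KD 2-cell embryos. It had 26.4, 21.3, 21.0 and 23.2 in control and 11.2, 9.40 and 10.5 in KD morulae, and 25.6, 35.03, 40.8 and 31.4 in control and 16.8, 21.1, 33.2 and 24.1 in KD blastocysts. Every KD morula library was below every control morula, and in blastocysts KD replicate 5 lay within the control range. Sdha fell 2.21-fold in morulae, from 23.0 ± 2.51 (SD, n = 4) to 10.4 ± 0.927 (SD, n = 3) FPKM (-0.95 on the log2 scale, SE 0.14, adjusted p = 0.00414), in all 7 fits without 1 library. In blastocysts it had -0.48 (SE 0.18, adjusted p = 0.0536) and passed without control replicate 1 (adjusted p = 0.0447) or KD replicate 5 (0.0202). Sdha was also called in blastocysts in the fit over all 22 libraries (adjusted p = 0.0116), with the replicate block (0.0349) and with the term for replicate numbers (0.0325). The interaction test gave 0.44 (adjusted p = 0.219).

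Sdhb, the iron-sulfur subunit, had 11.3, 9.96, 9.97 and 8.90 FPKM in control and 9.57, 8.38 and 8.94 in KD 2-cell embryos. It had 112, 152, 157 and 148 in control and 129, 115 and 122 in KD morulae, and 345, 355, 294 and 275 in control and 213, 237, 144 and 213 in KD blastocysts. Morula groups overlapped through control replicate 1, and blastocyst groups were separate, with KD replicate 5 the lowest. Sdhb fell in blastocysts (-0.66 on the log2 scale, SE 0.22, adjusted p = 0.0326) and had -0.08 in morulae (adjusted p = 0.790), with an adjusted p of 0.196 for the interaction. The blastocyst call was lost without control replicate 1 (adjusted p = 0.0760) or 4 (0.0790) and without KD replicate 5 (0.0627) or 6 (0.0587). It was also lost without the filter (0.122).

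Fh1 encodes fumarase, which adds water to fumarate to give malate. It had 2.598, 1.16, 2.05 and 2.51 FPKM in control and 1.49, 1.71 and 1.27 in KD 2-cell embryos. It had 14.7, 9.59, 14.7 and 16.5 in control and 4.27, 7.29 and 7.47 in KD morulae, and 44.4, 51.3, 50.3 and 47.9 in control and 16.8, 21.7, 19.1 and 27.3 in KD blastocysts. The groups were separate in morulae and blastocysts and overlapped at the 2-cell stage. Fh1 fell 2.28-fold in blastocysts, from 48.5 ± 3.06 (SD, n = 4) to 21.2 ± 4.53 (SD, n = 4) FPKM (-1.17 on the log2 scale, SE 0.17, adjusted p = 0.000339). It fell 2.19-fold in morulae (-0.91, SE 0.24, adjusted p = 0.0335), a call that was lost without control replicate 7 (adjusted p = 0.0784) or 8 (0.0796) and without KD replicate 1 (0.126) or 2 (0.0696). It was also lost without the filter (0.155).

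Of the malate dehydrogenases Mdh1 fell in KD blastocysts and Mdh2 was not called. Mdh1, which works in the cytosol and feeds the malate-aspartate shuttle, had 10.0, 15.5, 12.7 and 7.72 FPKM in control and 9.54, 10.6 and 10.5 in KD 2-cell embryos. It had 9.605, 14.6, 14.2 and 12.7 in control and 8.65, 5.98 and 7.01 in KD morulae, and 186, 121, 106 and 132 in control and 34.95, 43.3, 32.6 and 35.2 in KD blastocysts. Each KD morula was below each control morula as deposited, and KD blastocysts lay far below control blastocysts. After scaling, the morula groups overlapped through control replicate 1. Mdh1 fell 3.73-fold in blastocysts, from 136 ± 34.7 (SD, n = 4) to 36.5 ± 4.68 (SD, n = 4) FPKM (-1.84 on the log2 scale, SE 0.23, adjusted p = 0.000112). In morulae it had -0.63 (SE 0.21, adjusted p = 0.0693) and passed without control replicate 1 (-0.81, adjusted p = 0.0125). With FPKM as deposited it was called in morulae too (adjusted p = 0.0240). Mdh2, the mitochondrial enzyme of the cycle, had 267 to 299 FPKM in KD and 206 to 282 in control morulae, and 555, 332, 291 and 398 in KD and 321, 502, 302 and 266 in control blastocysts. These overlapped at both stages, with log2 fold changes of 0.32 (adjusted p = 0.259) and 0.19 (0.609).

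**Figure D2:**
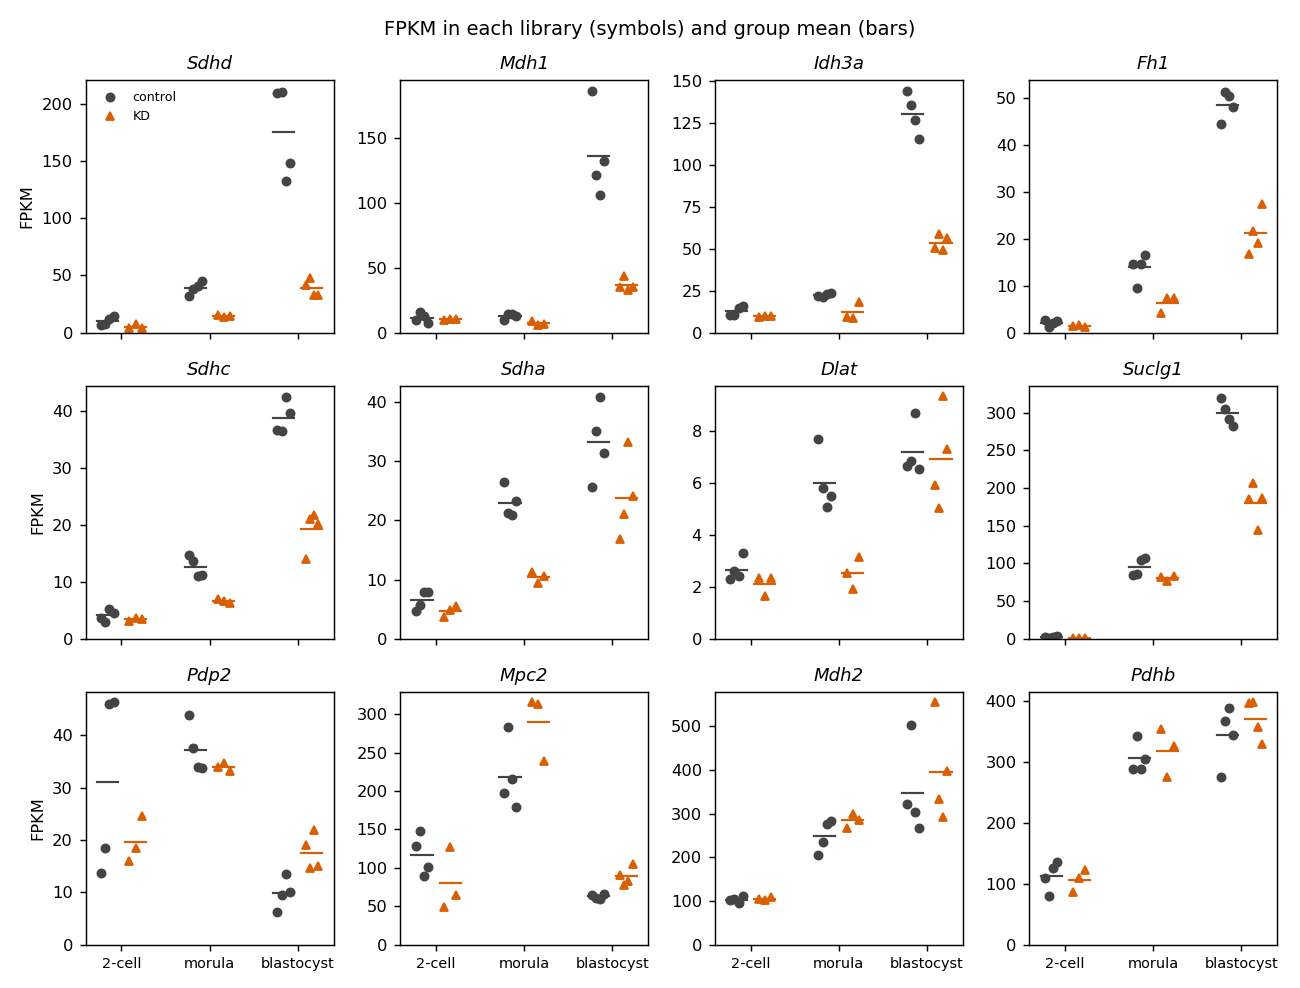
FPKM of 12 genes in each of the 22 libraries by stage and group, with bars at the group means. Sdhd, Mdh1, Idh3a and Fh1 lie lower in all KD than in all control blastocysts, and Pdhb and Mdh2 overlap.

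By role, 4 of 7 genes from succinate to oxaloacetate fell in KD morulae and 5 of 7 in KD blastocysts, beside 9.05% and 19.8% of all genes, with median log2 fold changes of -0.71 and -0.98. The morula count changed with single libraries. Without KD replicate 2 the calls of Sdhc and Fh1 were lost (adjusted p = 0.0528 and 0.0696, limma), and without control replicate 1 Mdh1 was called (0.0125). For the 7 genes from citrate to 2-oxoglutarate the medians were -0.38 and -0.23, for the 5 genes from 2-oxoglutarate to succinate -0.11 and -0.30, and for the 5 PDH subunits -0.32 and -0.07. Mdh1, Idh3a and Sdhd, with the largest rises from control morula to control blastocyst (3.21, 2.40 and 2.03 on the log2 scale), had -1.84, -1.26 and -2.13 in KD against control blastocysts. Pdp2 and Mpc2, with the largest decreases in that course (-1.93 and -1.85), had 0.81 and 0.50. Both comparisons use the same 4 control blastocyst libraries, so these values stand side by side only.

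Whether the KD effect differed between blastocysts and morulae was tested as an interaction over the 15 libraries of both stages. Of the 30 genes tested 2 had a higher effect in blastocysts and 2 a lower one, where 5.43% of all 12727 genes tested were higher and 6.3% lower. Mdh1 (-1.24 on the log2 scale, SE 0.32, adjusted p = 0.0196) had the stronger decrease in blastocysts. Me1 (-1.29, SE 0.35, adjusted p = 0.0239) passed at neither stage and its groups overlapped at both, with a positive value in morulae and a negative one in blastocysts. Dlat (0.80, adjusted p = 0.0410) was low in KD morulae alone, and Pdp2 (0.77, adjusted p = 0.0418) was high in KD blastocysts alone. The Mdh1 call was lost without morula KD replicate 1 (adjusted p = 0.0596), and that of Me1 without morula KD replicate 1 (0.0591) or 6 (0.0538). Dlat was called in 4 of 15 fits without 1 library, those without morula control replicate 7, morula KD replicate 6, blastocyst control replicate 5 or blastocyst KD replicate 4, and had adjusted p up to 0.116 without the others. Pdp2 was called in 3 of 15, those without blastocyst control replicate 5 or blastocyst KD replicate 4 or 6, and had adjusted p up to 0.0931 without the others. Among genes not called, Idh1 passed without morula control replicate 8 (adjusted p = 0.0384) and Pdha1 without blastocyst control replicate 5 (0.0440). Without the filter 0 of the 35 genes were called in the interaction, with adjusted p of 0.0701 for Dlat, 0.0793 for Pdp2, 0.0915 for Me1 and 0.0766 for Mdh1. The Pdp2 call was also lost in the fit over all 22 libraries (0.195) and with the replicate block (0.105), and that of Me1 with FPKM as deposited (0.0713) and with the block (0.124). Pdha1 passed with FPKM as deposited (0.0477), and Idh1 and Suclg1 with the term for replicate numbers (0.0403 and 0.0378).

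Marker genes of cell types were also compared between KD and control. Of 6 trophectoderm genes 1 fell and 1 rose in KD blastocysts, where 19.8% of all genes fell and 16.7% rose. The list summed to 997, 1474, 1311 and 989 FPKM in control and 584, 741, 784 and 604 in KD blastocysts, all KD libraries below all control libraries. Krt18, a keratin and the most abundant of them, fell from 799 to 389.7 FPKM (-1.02 on the log2 scale, adjusted p = 0.00126), Tfap2c rose (0.96, adjusted p = 0.00675), and Cdx2, the defining factor, had 0.863 to 2.66 FPKM in control and 1.11 to 3.07 in KD blastocysts. In morulae 0 of 5 tested trophectoderm genes were called (limma, 1 at an unadjusted p under 0.05), with sums of 131, 109, 129.9 and 146 in control and 95.5, 83.9 and 117 in KD embryos. Of 5 genes of the inner cell mass 1 of 3 tested fell in KD morulae, where 9.05% of all genes fell. It was Nanog, the most abundant in both groups, which fell from 106 to 20.7 FPKM (-2.23, adjusted p = 0.00645, limma). The interaction passed for Nanog (2.49, adjusted p = 0.00203) and Tfap2c (1.10, adjusted p = 0.0235) and not for Krt18 (-0.73, adjusted p = 0.133), and that of Tfap2c was lost without morula KD replicate 1 (adjusted p = 0.0556). The inner cell mass list summed to 146, 140.0, 147 and 174 FPKM in control and 48.5, 40.6 and 59.4 in KD morulae. In blastocysts 0 of 4 tested were called (limma, 1 at an unadjusted p under 0.05), with sums of 119, 140.3, 226 and 151 and 147, 159.8, 309.7 and 213. The part of these markers in the lower values of the pyruvate and TCA cycle genes was not tested.

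Of the 4 genes of the 2-cell embryo, Zfp352 was the only one tested in blastocysts. It passed the filter only through the KD libraries, being under 1 FPKM in all control blastocysts, and was higher with the KD, from 0.370 to 3.28 FPKM (1.57 on the log2 scale, adjusted p = 0.00156). In morulae it had 0.35 (adjusted p = 0.628), with an adjusted p of 0.205 for the interaction. The list summed to 0.466, 0.785, 0.0826 and 0.417 in control and 2.11, 5.26, 1.92 and 5.11 in KD blastocysts and to 0.175, 0.244, 3.39 and 2.83 and 3.50, 1.42 and 2.53 in morulae. Oocyte genes were not called (limma, 0 at an unadjusted p under 0.05), with sums of 10.3, 6.96, 4.79 and 6.54 in control and 8.42, 11.2 and 8.44 in KD morulae and 1.77, 2.18, 1.77 and 2.21 and 4.89, 3.55, 2.14 and 2.44 in blastocysts, Zp3 the most abundant. The part of leftover early RNA in the values of the 35 genes was not tested. Amhr2, the only tested gene of the cumulus and granulosa list, was not called in the KD comparisons, and that list summed to 5.66, 4.04, 5.79 and 4.76 in control and 3.87, 4.77 and 6.04 in KD morulae and 4.69, 3.87, 6.34 and 5.80 and 4.08, 4.27, 4.08 and 6.40 in blastocysts.

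Among blood cell markers, 1 of 3 leukocyte genes was tested and rose in KD morulae and blastocysts, the lysosomal Cd68 (1.21 and 0.95 on the log2 scale, adjusted p = 0.00793 and 0.00308). Of all genes tested 4.22% rose in KD morulae and 16.7% in KD blastocysts. The list summed to 2.73, 1.73, 3.42 and 2.27 FPKM in control and 8.83, 4.81 and 6.35 in KD morulae, and to 5.06, 5.43, 7.99 and 5.57 and 9.31, 15.1, 10.9 and 14.4 in blastocysts. Cd68 was the most abundant in each group, and the defining marker Ptprc was at 0 in all morula libraries and in all KD blastocysts. Of 3 erythrocyte genes 2 were tested and rose at both stages, Hba-a1 (1.202 and 0.80) and Hba-a2 (1.13 and 0.61), while Hbb-bs was at 0 in all 22 libraries. This list summed to 5.57, 2.43, 2.05 and 4.16 in control and 13.96, 8.91 and 6.37 in KD morulae and to 1.29, 1.56, 2.13 and 3.11 and 3.56, 5.87, 4.96 and 3.73 in blastocysts, with Hba-a1 the most abundant. The calls of Hba-a1 and Hba-a2 in morulae were lost without KD replicate 1 (adjusted p = 0.0721 and 0.0644) or 2 (0.0527 and 0.0647). That of Hba-a2 in blastocysts was lost without control replicate 4 (0.0787) or 5 (0.0706) or KD replicate 4 (0.0660) or 6 (0.0516). In blastocysts Hba-a2 passed the filter only through the KD libraries. At these levels of a few FPKM the part of blood cells in the results was not tested.

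A list of 30 other genes that feed, lipoylate, assemble or drain the cycle was followed beside the 35. In 2-cell embryos 20 were tested and 0 were called between KD and control (limma, 3 at an unadjusted p under 0.05). In morulae 22 were tested, 1 rose and 4 fell, beside the 4.22% and 9.05% of all genes. Dhtkd1, which encodes an enzyme related to Ogdh that acts on 2-oxoadipate, rose from 1.80 ± 0.812 (SD, n = 4) to 6.44 ± 3.28 (SD, n = 3) FPKM (1.44 on the log2 scale, SE 0.36, adjusted p = 0.0281), with overlapping groups. Sdhaf4 and Sdhaf2, assembly factors of succinate dehydrogenase, fell from 25.8 to 11.6 FPKM (-0.94, adjusted p = 0.0335) and from 17.3 to 7.94 (-0.92, adjusted p = 0.0210). The others that fell were the mitochondrial aspartate aminotransferase Got2 (-0.81) and the assembly factor Sdhaf3 (-0.64), named after their values were seen. Got2 reached 1 FPKM in 0 KD morulae and passed the filter only through the 4 control libraries. These morula calls were lost in some fits without 1 library. Over all 7 such fits the log2 fold change was 1.18 to 1.91 for Dhtkd1, -1.14 to -0.78 for Sdhaf4, -1.09 to -0.80 for Sdhaf2 and -0.72 to -0.59 for Sdhaf3. Dhtkd1 was not called without control replicate 2 (adjusted p = 0.0560) or 7 (0.0654) or KD replicate 2 (0.117) or 6 (0.0819). Sdhaf4 was not called without control replicate 2 (0.0552), 7 (0.0805) or 8 (0.0741) or KD replicate 1 (0.125) or 2 (0.114). Sdhaf2 was not called without control replicate 7 (0.0513) or 8 (0.0515) or KD replicate 1 (0.0688) or 2 (0.0945). Sdhaf3 was not called without control replicate 7 (0.0712) or 8 (0.07002) or any 1 KD library (up to 0.0978 without KD replicate 1), and Got2 without KD replicate 1 (0.0715).

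In KD blastocysts 7 of 22 tested genes of this list fell and 0 rose (limma, 11 at an unadjusted p under 0.05 in either direction), beside the 19.8% and 16.7% of all genes. Sdhaf4 had 138, 99.6, 70.9 and 75.6 FPKM in control and 33.4, 42.1, 21.6 and 28.9 in KD blastocysts. All KD libraries were below all control libraries, and Sdhaf4 fell 3.05-fold (-1.56 on the log2 scale, SE 0.29, adjusted p = 0.00147). Sdhaf3 fell from 5.89 to 2.19 FPKM (-1.12, adjusted p = 0.00223). Got1, the cytosolic aspartate aminotransferase that works with Mdh1 in the malate-aspartate shuttle, fell from 122 to 70.4 FPKM (-0.78, adjusted p = 0.00210). Each of these was called in all 8 fits without 1 library. Lipt1 (-0.78), Sdhaf2 (-0.71), Got2 (-0.66) and Slc25a11 (-0.48), named after their values were seen, made up the 7. Lipt1 and Sdhaf2 were also called in all 8 fits. Got2 was not called without control replicate 4 (adjusted p = 0.0699), 5 (0.0554) or 6 (0.0547) or KD replicate 1 (0.0728). Slc25a11, the 2-oxoglutarate carrier, was not called without control replicate 1 (0.0654) or 4 (0.116) or KD replicate 1 (0.0949), 4 (0.0673) or 5 (0.0563).

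In normal development 13 of 23 tested genes of this list rose and 6 fell from the 2-cell stage to the morula, and 12 of 24 rose and 5 fell from the morula to the blastocyst. Of all genes 43% rose and 40.3% fell in the earlier step and 27.6% and 28.8% in the later one. Of the list 3 that rose and 1 that fell passed the filter through 1 stage only in the earlier step, and 2 and 2 in the later one. Ldhb, a lactate dehydrogenase subunit, fell from 183 to 3.07 FPKM up to the morula (-5.51 on the log2 scale), while Sdhaf2 rose by 2.99 and Lias, which makes the lipoyl group of the PDH complex, by 2.38. Towards the blastocyst the largest changes were rises of the citrate carrier Slc25a1 (2.45), of Ogdhl (2.11), which is related to Ogdh, and of the aspartate-glutamate carrier Slc25a13 (2.09), of which Slc25a1 and Ogdhl passed the filter only through the blastocysts. In the interaction 0 of 24 tested genes of the list were called (limma, 5 at an unadjusted p under 0.05). Genes called at only 1 stage had interaction values of -0.97 for Dhtkd1 (adjusted p = 0.173), -0.54 for Got1 (0.113), -0.70 for Lipt1 (0.0867) and -0.21 for Slc25a11 (0.553). Of 7 regulators of mitochondrial genes 4 were tested, Nrf1, Gabpa, Hif1a and Myc, and 0 were called between KD and control at any stage (limma, 0 at an unadjusted p under 0.05), with log2 fold changes of -0.24 to 0.46 in morulae and 0.00 to 0.41 in blastocysts.

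All 35 genes are protein-coding in the mouse annotation on GRCm38, and 34 of 35 identifiers matched it with the same version, the exception being Mdh1 (ENSMUSG00000020321.16). The genes that fell in morulae lie apart from each other except for a pair on chromosome 9. They are Sdhd (ENSMUSG00000000171.5, chromosome 9, 50596357 to 50603812, minus strand), Dlat (ENSMUSG00000000168.9, chromosome 9, 50634633 to 50659780, minus strand), Fh1 (ENSMUSG00000026526.14, chromosome 1, 175600374 to 175625635, minus strand), Sdhc (ENSMUSG00000058076.12, chromosome 1, 171127165 to 171150603, minus strand) and Sdha (ENSMUSG00000021577.14, chromosome 13, 74322254 to 74350280, minus strand). None of these 5 shares exonic bases with another gene or a 75-base sequence with another transcript. Other members do, and the libraries do not tell the strands apart. Mpc1 shares 480 exonic bases (23.1%) with the antisense 4930506C21Rik, which had 0.233 FPKM in control morulae, and Pdha1 shares 603 (16.1%) with the antisense Map3k15 (0.617 FPKM). Of the 75-base sequences of Me1, 20.0% also occur in other genes, most in the pseudogene Gm7049 (0.275 FPKM in control morulae), and the share was 11.6% for Suclg2 with Gm15163 (1.05 FPKM) and 6.86% for Pdhb with Gm6123 (11.5 FPKM). Mdh1 shares 52 exonic bases with the antisense Wdpcp, at 0.0639 FPKM in control blastocysts.

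The promoters were searched for short motifs, on both strands of the 250 bases before the start given by RefSeq. Entries existed for 31 of the 35 genes and not for Idh3a, Me2, Pdp1 and Sdhc. GGGCGG, the core of SP1 sites, was present for 21 of 31 genes, beside 32.7% of all 32851 promoters of the same length, and CCAAT for 19 of 31, beside 33.9%. The NRF1 motif of 10 letters was present for 3 of 31 (3.74% of all) and the ETS motif CCGGAAG for 3 of 31 (6.91% of all). AAGATGGC, a YY1 motif, was present for 1 of 31 (1.56%), while TATAAA (12.4%) and the ERR motif AAGGTCA (4.08%) were present for 0 of 31. The 31 members were counted by gene and the background by promoter, and 7 members have more than 1 start, so these shares differ in unit. A match describes these letters only. The promoters of Sdhd, Fh1 and Dlat, genes that fell in KD morulae, are printed from RefSeq on build GRCm38.p6, 5′ to 3′ on the minus strand on which the genes lie, at chr9:50603850-50603909, chr1:175625636-175625885 and chr9:50659781-50660030. Capitals mark the motifs, which are an ETS motif for Sdhd, SP1 and CCAAT motifs for Fh1 and an SP1 motif for Dlat, on either strand. For Sdhd only the 60 bases next to the start are shown, because an exon of Timm8b lies beyond them, and the NRF1 match of Sdhd lies in the part not shown.
Sdhd: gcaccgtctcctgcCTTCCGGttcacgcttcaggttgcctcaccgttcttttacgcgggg
Fh1: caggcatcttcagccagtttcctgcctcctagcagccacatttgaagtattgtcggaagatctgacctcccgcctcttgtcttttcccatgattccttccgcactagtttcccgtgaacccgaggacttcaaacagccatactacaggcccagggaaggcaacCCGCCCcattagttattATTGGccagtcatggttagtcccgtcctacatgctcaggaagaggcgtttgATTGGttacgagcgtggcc
Dlat: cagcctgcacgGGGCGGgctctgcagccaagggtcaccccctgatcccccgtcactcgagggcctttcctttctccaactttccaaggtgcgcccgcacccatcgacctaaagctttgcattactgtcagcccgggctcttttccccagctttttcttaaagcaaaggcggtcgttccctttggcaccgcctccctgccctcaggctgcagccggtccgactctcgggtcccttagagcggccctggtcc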

How the data were processed

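RNA-seq values of 22 libraries were taken from the table of 55335 genes. Reads were mapped by the authors with STAR (mm10), and the deposited FPKM are those the authors obtained from StringTie 2.1.4. The authors called their own DEGs with DESeq2 1.30.1 on counts from featureCounts 1.6.2, which were not used here. Groups and replicate numbers came from the sample labels, which accounted for every value column.

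FPKM were divided by a median-of-ratios factor per library, computed within each comparison (0.874 to 1.17), and log2 values were taken after a pseudocount of 1. Genes with an FPKM of 1 or more in 3 or more libraries of the comparison were fitted with limma 3.58.1 in R 4.3.3 (lmFit and trended eBayes). No covariate was used, and p was adjusted by Benjamini-Hochberg over all genes tested. There were 6 comparisons, KD against control at 3 stages, 2 steps of control development, and the interaction of KD and stage. The scripts were tested on simulated data. Alternatives were a pseudocount of 0.1, no filter, FPKM as deposited, 1 fit over all 22 libraries, the replicate number as a block, each library left out, and, chosen after seeing the data, a term for low or high replicate numbers.

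Members and lists were chosen with earlier results of these data known. By rule, library values are given for the members that passed in KD morulae or blastocysts, up to 14 by absolute log2 fold change, and for Pdk1 to Pdk4, Mpc1 and Mpc2. Of the wider lists the 3 largest changes that passed at a stage are named. These lists were 30 other pathway genes, 7 regulators and markers of the 2-cell embryo, trophectoderm, inner cell mass, oocyte RNA, cumulus or granulosa cells, leukocytes and erythrocytes.

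Depth in reads is unknown. A relative depth from the steps between low values of single-exon genes was 14.8 to 28.7 per library, with medians of 25.1 and 23.2 in control and KD 2-cell embryos, 23.9 and 24.0 in morulae and 17.7 and 19.8 in blastocysts. The steps were weak, since 12.65% to 21.37% of low values lay within 0.05 of a whole step where an even spread gives 10%. Annotation and promoter sequences were read with Python 3.11.15, pandas 2.3.3 and numpy 2.4.6, and figures drawn with matplotlib 3.10.9.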

Additional observations from a re-analysis of the deposited data

Results flagged for a closer look

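In 123 groups of 4 libraries, each for 1 tested gene, 4 held a library far from the other 3 by Dixon's test, and chance gives about 1 in 20 groups. Pdk3 had 19.0 FPKM in 2-cell control replicate 4, beside 12.0 to 12.8 in the others. Me1 had 12.9 FPKM in morula control replicate 1, beside 5.85 to 6.58. Dlat had 8.69 FPKM in blastocyst control replicate 5, beside 6.56 to 6.84. Aco1 had 7.17 FPKM in blastocyst KD replicate 5, beside 3.34 to 3.70. The KD effect differed between blastocysts and morulae for 4 of 30 genes by the interaction test, 2 higher and 2 lower, where 5.43% and 6.3% of all genes were. None was called without the filter, and with 1 library left out Dlat was called in 4 of 15 fits and Pdp2 in 3 of 15. The difference, blastocyst minus morula on the log2 scale, was 0.80 for Dlat, 0.77 for Pdp2, -1.29 for Me1 and -1.24 for Mdh1.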

How the results depend on the processing

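No gene reversed its direction while called. Over the 6 comparisons and the genes tested in the reported fit, the call stayed as it was in 2518 alternative values of single genes, was lost in 77 and gained in 54. Without the filter, which tests many more genes, 3 of the 35 genes fell in morulae (all genes called: 412), 1 rose in blastocysts, and in the interaction 0 were higher and 0 lower (all genes: 983). With FPKM as deposited 10 fell in morulae. With 1 fit over all 22 libraries 46 genes were called at the 2-cell stage, 1 of the 35 rose in morulae, 1 in blastocysts, and 1 was higher in the interaction. With the replicate block 1 rose in morulae and 1 was higher in the interaction. Same-numbered libraries correlated in their deviations at r = 0.0147 to 0.214 at the 2-cell stage, 0.0943 to 0.181 in morulae and -0.110 to 0.353 in blastocysts. Libraries with different numbers had r of -0.237 to 0.205, -0.278 to 0.346 and -0.381 to 0.401 at these stages. With a term for low or high replicate numbers, chosen after seeing the data, 2 rose and 9 fell in morulae, and 5 were lower in the interaction. With 1 library left out, all genes called were 0 to 3 at the 2-cell stage, 552 to 1744 in morulae, 3461 to 4147 in blastocysts and 958 to 1720 in the interaction. Of the 35 genes 0 to 3 rose and 2 to 9 fell in morulae, 1 to 2 rose and 8 to 12 fell in blastocysts, and 0 to 3 were higher and 0 to 4 lower in the interaction. The cause of these shifts was not tested. Between control blastocysts and control morulae no paired analysis was possible, because their libraries share only replicate number 1. The other comparisons were fitted with the replicate block. Library values under 1 FPKM rest on few reads, and depth, which is unknown, limits them.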
